A study of Trachemys scripta with 24 samples.

Results

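The comparison described here sets plasma taken 36 h after gonadectomy (T2) against plasma taken 24 h before it (T0) in female pond sliders (Trachemys scripta). Its members are the 8 T2 libraries and the 8 T0 libraries, which are 16 of the 24 libraries of the series, and they were chosen by the time point in the labels. The other 8 libraries were taken 2.5 h after surgery (T1). They entered the model for the spread between libraries, and their values are given only beside those of T2.

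The turtles were adult females in good health whose ovaries were removed by choice rather than for disease, and the labels give no genotype or age. T0 plasma came from the turtles before anesthesia and surgery. T2 plasma came from turtles that had received dexmedetomidine, ketamine, midazolam and alfaxalone, had their ovaries removed by an endoscope-assisted approach in front of the hind limb, and had the sedation reversed with atipamezole and flumazenil. The design holds no group that was anesthetized without surgery, so surgery and anesthesia cannot be told apart. The turtles had entered hospital and had food withheld before T0, and they fed again before T2. Feeding and the length of the hospital stay thus also differed between T0 and T2 and cannot be told apart from surgery. Blood was collected in EDTA tubes, and small RNA of the plasma was sequenced on a NextSeq500. By the study's methods the same 8 turtles were sampled at each time point. The labels do not say which libraries came from one turtle, so libraries were not paired, and the tests treat them as independent. Where the report calls a library by a name such as t39, it is the name in the labels.

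MiRNAs are short RNAs cut from hairpin precursors. One arm of the hairpin is usually kept as the guide, which leads the silencing complex to messenger RNAs through its seed, the bases near its 5′ end. Cells release miRNAs into blood in vesicles or bound to proteins, and their plasma level depends on release and on clearance. In these bulk libraries, fewer releasing cells and less RNA released per cell cannot be told apart. The reads had been mapped to miRNA precursors of other saurians, and the values below are for the entries of Chrysemys picta, the painted turtle, whose names start with cpi. No miRNA sequences were used here.

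The table held 528 cpi entries, of which 198 passed a filter on low counts. These 198 entries took 99.5% of the cpi counts. Levels are given as CPM, the count of an entry relative to the library's total cpi count, scaled by the TMM method of edgeR. The study's limits were used to call an entry. Its p adjusted over all entries tested had to be 0.1 or lower, and its log2 fold change of T2 over T0 (log2FC) had to be 1 or more in size. Total cpi counts per library ranged from 41203 to 312589 at T0, the median being 128365.5, and at T2 between 5837 and 515184, the median being 106218. The lowest T2 total, 5837, belonged to library t39, in which 1 count was worth 171 CPM before scaling, and each result is also given without this library where it matters. The arm names are those of the table and could not be taken as the strand. The arms were checked in hairpins with at least 100 counts whose usual guide arm is known from other vertebrates. Of 111 with neither arm marked as a miRBase entry, 102 had more counts under the name of the other arm. Of those with both arms marked, 4 of 4 had more counts under the name of the usual guide arm. Among the entries described below, the 102 include the hairpins of cpi-mir-92b, cpi-mir-145, cpi-mir-143, cpi-mir-499, cpi-mir-1a-1 and cpi-mir-122.

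Taken as whole profiles, the T2 libraries did not stand apart from the T0 libraries. The time point accounted for 5.04% of the squared distance between the 16 libraries on log2(CPM + 1), with p = 0.873 in an exact permutation test over all assignments of the libraries. Without t39 the share was 6.60%, with p = 0.545 in the exact permutation test. The mean log10 of the total count was 5.04 ± 0.381 (SD, n = 8) at T0 and 4.98 ± 0.588 at T2, with p = 0.817 in a two-sided exact permutation test. The difference turned from -0.06 to 0.11 without t39. The mean number of entries detected was 338.5 at T0 and 319.5 at T2, and the 10 most abundant entries took 67.1% and 68.6% of the counts. Exact permutation tests gave p = 0.558 and p = 0.407 for these, and the p adjusted over the 3 library measures was 0.817 for each. With t39 left out, T2 differed from T0 by -1.21 entries detected and by 2.39 percentage points in that share. The exact permutation tests then gave p = 0.966 and p = 0.141. Library t39 lay farthest from its own group, at a root mean square distance of 3.97 on the log2 scale, where the other T2 libraries lay between 1.86 and 2.09 and the T0 libraries between 1.67 and 2.56.

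At the limits of the study 1 of the 198 entries was called, which is 0.505%. It was cpi-mir-92b-5p, and it rose. At an unadjusted p of at most 0.05 with the same fold limit, 5 entries were higher at T2, or 2.53%, and 3 were lower, or 1.52%. The higher entries were cpi-mir-9-4-3p, both arms of cpi-mir-145, cpi-mir-92c-5p and the called entry. The lower entries were cpi-mir-1a-1-5p, cpi-mir-1a-2-5p and cpi-mir-142-2-5p. Over all 198 entries, 97 had a log2FC above 0 and 101 below, with a median of -0.01. With 1 entry kept of each group that shares its reads, the median was 0.12, so that all changes shift by about the same amount under that scaling.

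**Figure D1:**
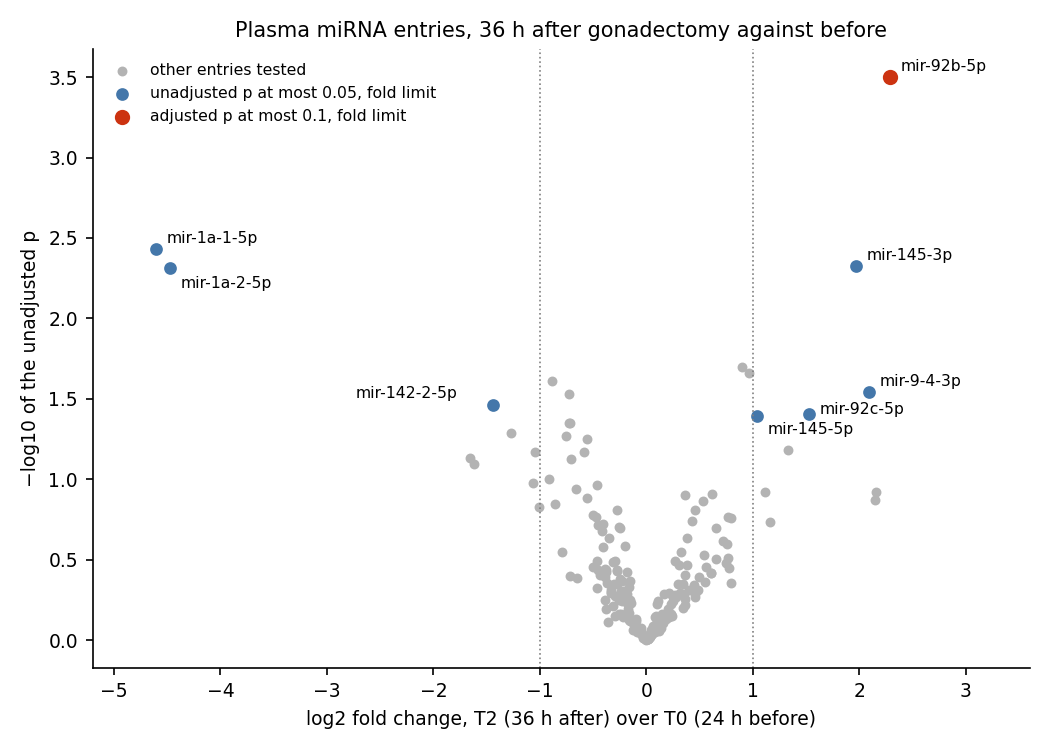
Log2FC of T2 over T0 (horizontal axis) and −log10 of the unadjusted p of edgeR's quasi-likelihood test (vertical axis) for 198 cpi entries, with dotted lines at the fold limit of 1 either way. The red point is the entry called at the adjusted limits, cpi-mir-92b-5p at 2.29, and the blue points are the other entries at an unadjusted p of at most 0.05 past the fold limit.

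The entry that rose, cpi-mir-92b-5p, is named after a hairpin of the mir-25 and mir-92 family. The guide arms of that family share a seed and are known in mammals for roles in cell growth and vessel formation. Whether this entry holds the guide arm could not be told from its name. Its CPM at T0 was 68.4 in t31, 199 in t34, 115 in t37, 242 in t40, 107 in t43, 246 in t46, 177 in t49 and 194 in t52. At T2 it was 2240 in t33, 1290 in t36, 135 in t39, 283 in t42, 796 in t45, 318 in t48, 880 in t51 and 353 in t54. The T2 libraries other than t39 all lay above the highest T0 library, while t39 lay among the T0 values with a single count. The level was therefore 168.6 ± 65.3 CPM (SD, n = 8) before surgery and 786 ± 702 at T2, on 178 and 1374 counts. The spread at T2 was far wider than at T0, with t33 highest.

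The log2FC of cpi-mir-92b-5p was 2.29 (standard error, SE, 0.55), or 4.90-fold, with an adjusted p of 0.0628 by edgeR's quasi-likelihood test. Without t39 it was 2.42, with an adjusted p of 0.0318. Of the 198 entries, 1 had T0 and T2 libraries that did not overlap once t39 was left out, or 0.505%, and it was this one, while 0 of 198, or 0%, were free of overlap in all 16 libraries. The log2FC stayed between 1.87 and 2.42 with each of the 16 libraries left out in turn, but the call held in 5 of these fits and was lost in 11. It was lost without T0 library t31, t34, t37, t40, t43, t49 or t52 and without T2 library t33, t36, t45 or t51. The adjusted p then ranged from 0.102 to 0.298, where it is highest without t33.

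The relatives of cpi-mir-92b-5p were not called. The most abundant of them, cpi-mir-92a-1-5p, had 17860.0 ± 2874 CPM (SD, n = 8) before surgery and 15047 ± 3914 at T2, a log2FC of -0.25 (adjusted p = 0.813 by edgeR). The second copy of that miRNA, cpi-mir-92a-2-5p, had the same log2FC of -0.25. The third relative, cpi-mir-92c-5p, was low, with 0 to 167 CPM at T0 and 0 to 449 at T2. T2 libraries t33, t36, t45 and t51, which had the highest levels of cpi-mir-92b-5p, lay above every T0 library, and t39 and t42 were at 0. Its log2FC was 1.53 (SE 0.71), with an unadjusted p of 0.0391 that became 0.637 after adjustment by edgeR. Over the mir-17 and mir-92 clusters, a group that drives cell growth, 4 of 10 entries tested were above 0 and 6 below, with a median of -0.05. Summed over the family, mir-92 had a log2FC of -0.16, since the mir-92a entries hold most of its counts.

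**Figure D2:**
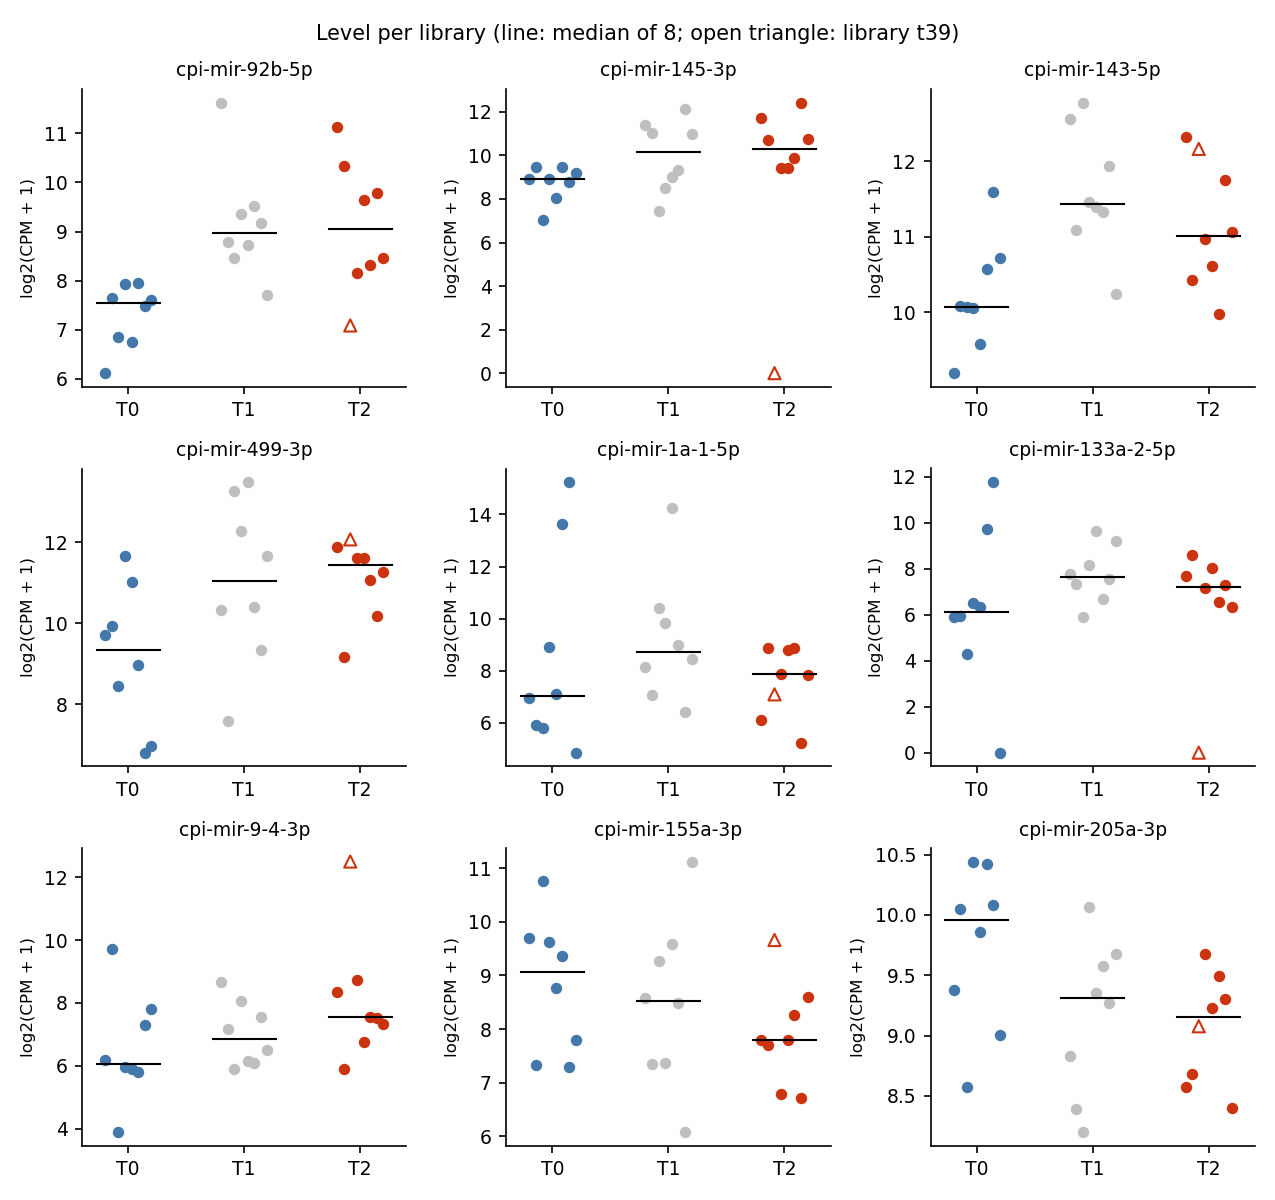
Level of 9 entries in each library as log2(CPM + 1), with T0 in blue, T1 in gray and T2 in red, lines at the median of 8 libraries and an open triangle for T2 library t39. For cpi-mir-92b-5p the T2 libraries other than t39 sit above all T0 libraries, while for cpi-mir-1a-1-5p T0 libraries t46 and t49 sit far above all T2 libraries and for cpi-mir-9-4-3p t39 stands alone at 5790 CPM.

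The miRNAs of smooth muscle had the highest median of the family lists with an entry tested. mir-143 and mir-145 are made from neighboring hairpins and keep smooth muscle cells of vessels and gut in their contractile state in mammals. All 3 of their entries tested had a log2FC above 0, with a median of 1.04 beside -0.01 for all entries, and 0 of 3 were called. The direction was the same in all 3 under each other scaling. The summed level of the list's entries ranged from 1199 to 3739 CPM at T0 and from 2095 to 9725 at T2, so that the groups overlapped.

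Within that pair, cpi-mir-145-3p had 482, 717, 129, 485, 262, 716, 442 and 583 CPM at T0, in the order t31 to t52. At T2 it had 3360 CPM in t33, 1690 in t36, 0 in t39, 692 in t42, 677 in t45, 942 in t48, 5520 in t51 and 1710 in t54. Libraries t33, t36, t48, t51 and t54 lay above every T0 library, t42 and t45 were within the T0 range, and t39 had no count. The log2FC of cpi-mir-145-3p was 1.97 (SE 0.64), with an unadjusted p of 0.00472 that became 0.239 after adjustment by edgeR. Without t39 it was 2.14, with an adjusted p of 0.123 by edgeR and 0.0392 by DESeq2. Without t51, the highest library, it was 1.48. The other arm, cpi-mir-145-5p, had a median of 159 CPM at T0 and 272 at T2, a log2FC of 1.04 and an unadjusted p of 0.0403 (adjusted p = 0.637 by edgeR). Without T2 library t33 the log2FC of cpi-mir-145-5p was 0.49. The neighboring cpi-mir-143-5p had a median of 1073 CPM at T0, between 585 and 3080, and 2072 at T2, between 1010 and 5130. The groups of cpi-mir-143-5p overlapped, with T0 library t49 above all T2 libraries but t33, t39 and t51. The log2FC of cpi-mir-143-5p was 0.96 (SE 0.39, adjusted p = 0.637 by edgeR) with all libraries and 0.82 without t39.

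The same reads of mir-145-3p were counted under several species. The aca, cpi, ami and oha entries had 3457, 3140, 3143 and 3134 counts at T2, so they are not independent of each other. cpi-mir-92b-5p had 1374 counts at T2 and its only other entry, ami-mir-92b-5p, had 1.

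In the list of skeletal and heart muscle miRNAs, the lowest fold changes rested on T0 libraries t46 and t49. mir-1, mir-133 and mir-206 are made in contracting muscle, mir-499 lies within a myosin gene, and in mammals all of them leak into plasma when muscle is injured. Of the 6 entries tested, 2 were above 0 and 4 below, with a median of -1.64, and 0 were called. The summed level ranged from 569 to 98101 CPM at T0 and from 4391 to 13560.0 at T2.

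For cpi-mir-1a-1-5p the T0 levels were 124 CPM in t31, 59.8 in t34, 55.2 in t37, 485 in t40, 136 in t43, 12700 in t46, 38900 in t49 and 27.8 in t52. At T2 they were 67.8 in t33, 469 in t36, 135 in t39, 236 in t42, 439 in t45, 471 in t48, 35.9 in t51 and 224 in t54. T0 libraries t46 and t49 stood far above the other 14 libraries, which overlapped, and the median was 130.1 CPM at T0 and 230.1 at T2. The log2FC was -4.60 (SE 1.44), with an unadjusted p of 0.00373 that became 0.239 after adjustment by edgeR. Without t46 and t49 the log2FC turned to 1.04, with an unadjusted p of 0.300. The second copy, cpi-mir-1a-2-5p, which counts largely the same reads, turned from -4.47 to 1.51.

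The mir-133 entries were high in the same T0 libraries. cpi-mir-133a-2-5p had 860 CPM in t46 and 3500 in t49 and between 0 and 90.9 in the other T0 libraries, while T2 lay between 0 and 381. Its log2FC turned from -1.66 to 1.83 without t46 and t49, and that of cpi-mir-133a-1-5p turned from -1.62 to 1.43. Leaving out these 2 libraries was chosen after their values were seen, and leaving out T0 libraries that are high for an entry by itself raises its log2FC. Without them all 6 muscle entries were above 0, with a median of 1.26. These include both copies of mir-1a, which count largely the same reads. They also include both copies of mir-133a, which had 1078 and 1038 counts over all libraries and may share reads too. cpi-mir-206-5p had its highest T0 level in t49, 10000 CPM, but in t46 it had 3250 CPM, near its T0 median of 3438. Its log2FC was 0.12 (SE 0.82), with signs that changed when single libraries were left out.

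The muscle entry with the highest log2FC with all libraries was cpi-mir-499-3p. Its T0 levels were 843, 976, 349, 3240, 2060, 504, 111 and 125 CPM in the order t31 to t52. At T2 they were 3800, 579, 4310, 3110, 3150, 2150, 1170 and 2480 CPM in the order t33 to t54. All T2 libraries but t36 lay above the T0 median of 674 CPM, and T0 libraries t31, t34, t40 and t43 lay within the T2 range. Set against T0, the log2FC was 1.33 (SE 0.69), or 2.52-fold, with an unadjusted p of 0.0655 that became 0.670 after adjustment by edgeR. Without t39 it was 1.20. T0 libraries t46 and t49, high for cpi-mir-1a-1-5p, had 504 and 111 CPM of cpi-mir-499-3p. Library t49 was the lowest at T0, while t46 lay below the T0 median of 674 CPM but above t37 and t52.

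**Figure D3:**
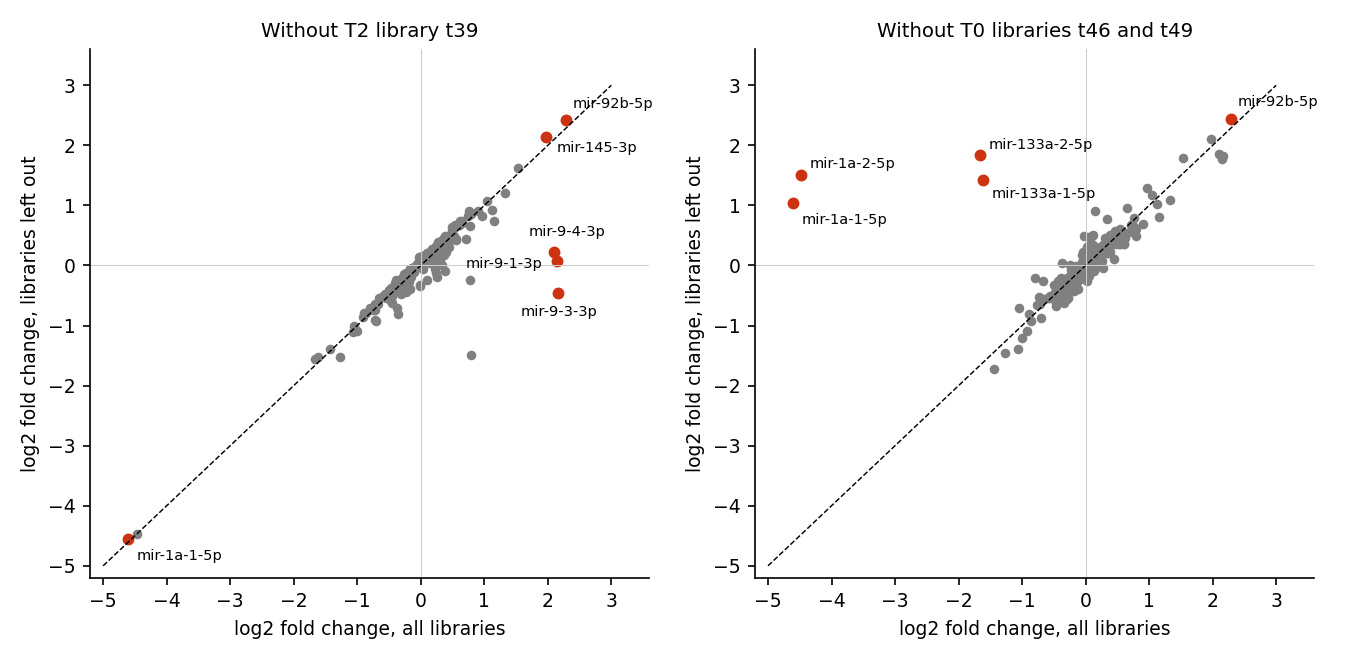
Log2FC of T2 over T0 for 198 entries with all libraries (horizontal axes) and with libraries left out (vertical axes), t39 on the left and t46 and t49 on the right, with the dashed line marking equal values. The 3 labeled mir-9 entries go from above 2 to between -0.45 and 0.22 without t39, and the mir-1a and mir-133a entries move from below 0 to above 0 without t46 and t49, while cpi-mir-92b-5p stays at 2.42 and 2.44.

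The neural list rested on t39. Its leading entries are those of mir-9, a miRNA of neural progenitors and neurons in vertebrates. With all libraries, 11 of 14 neural entries tested were above 0, with a median of 0.43, and without t39 7 of 14 were, with a median of -0.03. cpi-mir-9-4-3p had 5790 CPM in t39, from 43 counts, and between 58.1 and 425 in the other T2 libraries. At T0 it had between 13.8 and 222 CPM in every library but t34, which had 837. Its log2FC was 2.09, with an adjusted p of 0.637 by edgeR, and 0.22 without t39. The copies cpi-mir-9-3-3p, with 5520 CPM in t39, and cpi-mir-9-1-3p, with 4720, went from 2.16 to -0.45 and from 2.15 to 0.07. cpi-mir-9-2-3p had 5930 CPM in t39, from 44 counts, and 0 to 472 in the other T2 libraries, beside 80.9 to 1040 at T0. Its log2FC turned from 0.80 to -1.48 without t39. These copies may count the same reads. The most abundant neural entry, cpi-mir-128-1-5p, had 28976 ± 1842 CPM (SD, n = 8) before surgery and 25251 ± 5949 at T2, a log2FC of -0.20.

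Blood cell miRNAs divided by family. mir-142 is made in all white cells, mir-223 in granulocytes and related cells, and mir-451 and mir-144 in red cell precursors. The mir-142 entries were all below 0. cpi-mir-142-2-5p had a median of 114 CPM at T0, from 0 in t34 and t40 to 455 in t37. At T2 it had 16.9, 152, 0, 31.5, 51.7, 47.1, 21.6 and 48.1 CPM in the order t33 to t54. T2 library t36 was the only one above the T0 median, and the groups overlapped. For cpi-mir-142-2-5p the log2FC was -1.44 (SE 0.64), with an unadjusted p of 0.0344 that became 0.637 after adjustment by edgeR.

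The more abundant arm, cpi-mir-142-2-3p, had a log2FC of -0.59 (unadjusted p = 0.0681, adjusted p = 0.670 by edgeR), with 7 of 8 T2 libraries below the T0 median. cpi-mir-142-1-5p and cpi-mir-142-1-3p had -0.92 and -1.06. Without T0 library t37 these were -0.37 and -0.54, and cpi-mir-142-2-5p had -0.89. The mir-223 entries were not lower: cpi-mir-223-3p had 7325 ± 1589.5 CPM (SD, n = 8) before surgery and 7726 ± 2179.5 at T2, a log2FC of 0.08, and cpi-mir-223-5p had 0.76 (SE 0.65). Over the white cell list 2 of 6 entries were above 0, with a median of -0.75. The summed level of that list, mostly mir-223, overlapped between T0, at 7212 to 20460.0 CPM, and T2, at 6197 to 26905. For the red cell list both entries tested were below 0, with a median of -0.44. Its main entry, cpi-mir-451-3p, had 27872 ± 16581 CPM (SD, n = 8) before surgery and 25053 ± 16889 at T2, a log2FC of -0.15 (SE 0.51). The third family of the red cell list, mir-486, and the white cell family mir-150 had 0 entries in the table.

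Of the inflammation list, 3 of 6 entries were above 0, with a median of -0.05 and 0 called. mir-155 is induced in activated immune cells, mir-146 dampens their signaling, and mir-21 rises in many stressed tissues. cpi-mir-155a-3p had a median of 549 CPM at T0, between 155 and 1740, and 221 at T2, between 104 and 808. T2 library t39, with 6 counts, was the only one above the T0 median, and all T0 libraries but t31 and t37, which lay above it, were within the T2 range. Its log2FC was -1.27 (SE 0.62, unadjusted p = 0.0513, adjusted p = 0.658 by edgeR), and -1.52 without t39 (unadjusted p = 0.0212, adjusted p = 0.641). Without T0 library t37, the highest, it was -0.84. cpi-mir-21-3p had -0.17, cpi-mir-146b-3p had 0.53 and cpi-mir-146c-5p had 0.65, and none of these 3 was called.

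Among epithelial miRNAs, cpi-mir-205a-3p had lower values at T2 in most libraries. mir-205 marks the skin and other layered epithelia in mammals. Its T0 levels were 666, 1060, 381, 1390, 927, 1370, 1080 and 514 CPM in the order t31 to t52, and its T2 levels were 381, 409, 539, 818, 599, 718, 632 and 336 CPM in the order t33 to t54. All 8 T2 libraries lay below the T0 median of 992 CPM, while T0 libraries t31, t37 and t52 lay within the T2 range. The difference came to a log2FC of -0.73 (SE 0.32), with an unadjusted p of 0.0294 that became 0.637 after adjustment by edgeR. It was -0.73 without t39 as well. The other epithelial entries went both ways, 3 above 0 of 6 in all, and cpi-mir-200b-5p had 0.27 (SE 0.42).

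For mir-204 the 3p entries had values below 0 and the 5p entries did not, and none was called. mir-204 is known in mammals from the eye, the kidney and the insulin-producing cells. cpi-mir-204-2-3p had a median of 663 CPM at T0, between 310 and 1610, and 461 at T2, between 135 and 703, and 7 of 8 T2 libraries were below the T0 median. Its log2FC was -0.89 (SE 0.37, unadjusted p = 0.0246, adjusted p = 0.637 by edgeR), and -0.80 without t39. cpi-mir-204-3-3p had -0.73 and cpi-mir-204-1-3p had -0.76. Copies 1 and 2 count almost the same reads. Copy 3 had 1215 counts at T0 and 505 at T2, beside 1227 and 502 for copy 1, and may count the same reads. These values should therefore not be read as separate observations. The 5p entries cpi-mir-204-1-5p and cpi-mir-204-3-5p had 0.12 and 0.02.

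No liver miRNA was called or passed the unadjusted limits. mir-122 is the main miRNA of hepatocytes, and mir-192, mir-194 and mir-215 are shared by liver and gut. All 6 entries tested had a log2FC below 0, also under each other scaling, with a median of -0.33 beside -0.01 for all entries. cpi-mir-194-1-3p and cpi-mir-194-2-3p have nearly the same counts and are not separate observations. With 1 entry kept of each group that shares its reads, 5 liver entries were left. The smallest of these, -0.23 for cpi-mir-192-3p, turned to 0.01 without T0 library t31. cpi-mir-122-3p varied widely, from 11300 to 90300 CPM at T0 apart from t40, which had 289000, and from 5870 to 126000 at T2, where 4 of 8 libraries lay above the T0 median. Its log2FC of -0.65 (SE 0.78) turned to 0.34 without t40. cpi-mir-215-3p had a median of 1272 CPM at T0 and 736 at T2, with 7 of 8 T2 libraries below the T0 median, and a log2FC of -0.71 (unadjusted p = 0.0744, adjusted p = 0.670 by edgeR). Without t39 it was -0.92 (unadjusted p = 0.0192, adjusted p = 0.641).

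**Figure D4:**
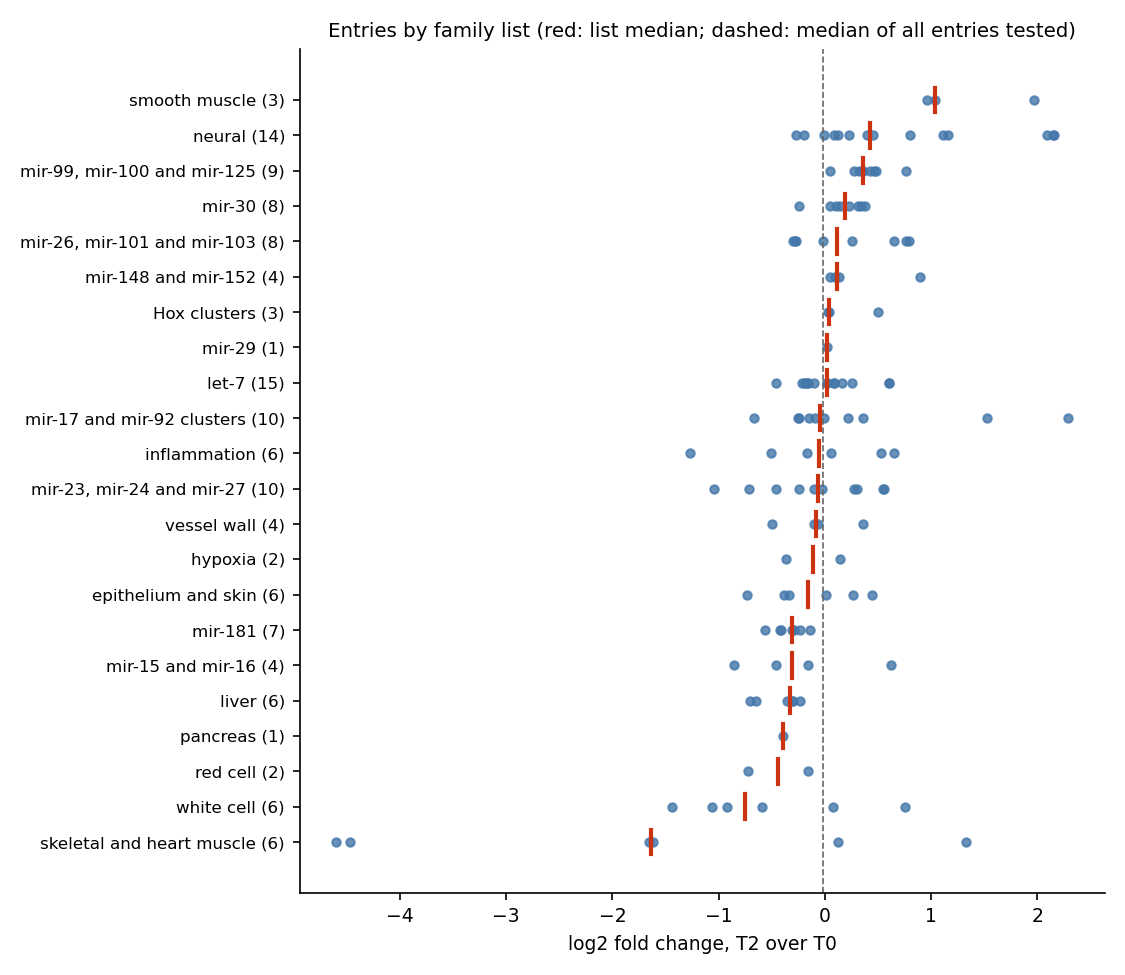
Log2FC of T2 over T0 (horizontal axis) for the entries of each family list, with the number tested in brackets, a blue point per entry, a red bar at the list's median and a dashed line at the median of all 198 entries. Smooth muscle has the highest median, 1.04, and skeletal and heart muscle the lowest, -1.64, where the points run from -4.60 to 1.33.

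The most abundant entries differed little. cpi-mir-425-3p had 153970 ± 42529 CPM (SD, n = 8) before surgery and 149130 ± 41057 at T2, and cpi-mir-148a-5p, of a family with roles in lipid metabolism and B cells, had 143510 ± 38244 and 153840 ± 26717. Their log2FC values were -0.05 and 0.10, with adjusted p-values of 0.987 and 0.917 by edgeR. cpi-mir-99a-3p had 128520 ± 33963 CPM before surgery and 165110 ± 48211 at T2, a log2FC of 0.36 (SE 0.23, adjusted p = 0.799 by edgeR), with 6 of 8 T2 libraries above the T0 median and 0.45 without t39. cpi-mir-99b-3p had 0.27. The mir-99, mir-100 and mir-125 list, whose hairpins lie next to let-7 genes and which restrain growth signaling, had all 9 entries tested above 0. Its median was 0.36, the direction held under each other scaling, and 0 were called. The lowest of them, cpi-mir-125a-3p at 0.05, turned to -0.07 without T2 library t33. cpi-mir-125b-1-3p and cpi-mir-125b-2-3p have nearly the same counts and are not separate observations. cpi-mir-148b-5p had a median of 960 CPM at T0 and 1501 at T2, where t36 was highest with 4750. Its log2FC was 0.90 (SE 0.36, unadjusted p = 0.0202, adjusted p = 0.637 by edgeR), and 0.49 without t36.

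Families known from the gonad had few counts in either group. mir-202 and mir-383 are gonad miRNAs in vertebrates, and 0 of their 4 entries passed the filter. mir-202 had 15 counts over the T0 libraries and 31 over the T2 libraries. mir-383 had 63 and 44, and summed as a family it passed the filter, with a log2FC of -0.16 (SE 0.74, adjusted p = 0.966 by edgeR). The summed level of the gonad list ranged from 0 to 333 CPM at T0 and from 18.0 to 294 at T2. mir-34, which p53 induces in damaged cells, had 72 and 130 counts, of which 129 lay outside t39, and 0 of its list's 13 entries passed the filter. Summed as a family, mir-34 had a log2FC of 0.78 (SE 0.65, adjusted p = 0.918 by edgeR), with 4 T2 libraries above and 4 below the T0 median.

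From sequencing the study lists miR-92b-5p, miR-145-3p and miR-499-3p as higher at both times after surgery. For 36 h alone it lists miR-138-1-3p as lower and miR-196-2-3p as higher. It ran DESeq2 on the rows of all species, so both the test and the entries tested differ from those here. Of these miRNAs edgeR called only miR-92b-5p here with all libraries. With entries of all species its adjusted p was 0.201 by edgeR. By DESeq2 on the cpi entries the adjusted p was 0.00673 for cpi-mir-92b-5p and 0.228 for cpi-mir-145-3p. DESeq2 was not run here on entries of all species. cpi-mir-196-2-3p did not pass the filter, and miR-138-1-3p has no cpi entry. The entry aca-mir-138-1-3p had 46.7 to 394 CPM at T0 and 0 to 94.4 at T2, and all 8 T2 libraries lay below the T0 median of 129.9 CPM. T0 libraries t31 and t37 lay within the T2 range. In the fit of all species its log2FC was -1.82 (SE 0.87), with an unadjusted p of 0.0472 that became 0.577 after adjustment by edgeR. The cpi arms cpi-mir-138-3p and cpi-mir-138-5p together had 35 counts at T0 and 26 at T2. cpi-mir-196-2-3p had 13 counts at T0 and 45 at T2, with 539 CPM in t39 from 4 counts and between 0 and 134 in the other T2 libraries, and 7 of 8 T2 libraries lay above the T0 median. Fitted with no filter on low counts, its log2FC was 2.62 (SE 1.02, unadjusted p = 0.0147, adjusted p = 0.332 by edgeR), and 1.92 without t39 (unadjusted p = 0.0530). cpi-mir-203-5p, a miRNA of skin, had 0 to 273 CPM at T0 and 23.5 to 269 at T2, a log2FC of 0.45 (SE 0.59, adjusted p = 0.907 by edgeR). Summed as a family, mir-203 had a log2FC of -0.18 (SE 0.45). From sequencing the study lists miR-203-5p at 2.5 h only. The study also ran quantitative PCR, scaled to an added control RNA and including turtles not sequenced. By that method it reports miR-203-5p lower and miR-499-3p higher at 36 h than before. miR-92b-5p, the entry called here, and miR-138-1-3p were detected by that method but did not differ significantly over time. miR-143-5p and miR-196-2-3p were too weak to be quantified by it.

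Summed by family, 94 families passed the filter and 0 were called, or 0%, with a smallest adjusted p of 0.164 by edgeR. At the unadjusted limits 5 families passed, or 5.32%. mir-145 and mir-499 were higher, with log2FC values of 1.84 and 1.45, and mir-1, mir-133 and mir-155 were lower, with -4.35, -1.80 and -1.24. Without t39 the adjusted p of mir-145 was 0.0891, past the limits. For mir-499 all 8 T2 libraries lay above the T0 median. However, cpi-mir-499-3p gave 1275 of the family's 1280 counts at T0 and 2240 of 2240 at T2. cpi-mir-155a-3p gave 994 of the 1001 counts of mir-155 at T0 and 264 of 269 at T2. These 2 families thus repeat results of single entries, and their CPM differ because families were scaled apart from entries. mir-1 and mir-133 had 1.28 and 1.52 without t46 and t49.

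At 2.5 h after surgery the same T0 libraries served as the reference, so the changes at T1 and T2 are not independent. cpi-mir-92b-5p had a log2FC of 2.32 at T1 beside 2.29 at T2, and cpi-mir-145-3p had 1.79 beside 1.97. cpi-mir-499-3p had 2.01 beside 1.33, and cpi-mir-143-5p had 1.40 beside 0.96. cpi-mir-155a-3p had -0.08 at T1 beside -1.27, and cpi-mir-204-2-3p had -0.06 beside -0.89. Set directly against T1, 0 of 198 entries were called at T2 by edgeR, with a smallest adjusted p of 0.768, and 8 passed the unadjusted limits, 7 of them lower at T2.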

How the data were processed

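Libraries were made with the NEBNext small RNA set. The extraction kit in the labels differs from the kit that the study selected, and it is not known here which was used for sequencing. The authors discarded short reads, clipped adapters with Cutadapt, aligned the rest with BWA to miRBase precursors of 4 saurian species, and deposited whole-number counts per mature miRNA entry with no normalization. The table repeats each of its 1994 entries in 2 rows, 1 of which was used, and cpi entries hold 25.3% of the counts, since a read can count under several species and copies. 11 groups of cpi entries have counts within 10% of each other, so sums per family count some reads more than once.

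Libraries were grouped by the time point in the labels. edgeR (version 4.0.16, R 4.3.3) fitted all 24 libraries as 3 time points, after TMM scaling (factors 0.698 to 1.27) and the filterByExpr filter, with its quasi-likelihood test and Benjamini-Hochberg adjustment over the entries tested. The common dispersion was 0.452, and total cpi counts from 5837 to 515184 set the precision. The standard error is the log2 fold change divided by the root of the F statistic. Library measures were tested with exact permutation tests, two-sided (numpy 2.4.6). The fit and the permutation test were tested on simulated data. DESeq2 (version 1.42.0), sva (version 3.50.0), other filters and scalings, and leaving out each library were alternatives.

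The members and lists were chosen with earlier results of these data known. The entries named are those called, the 10 with the smallest p in each direction, the 5 most abundant, those the study lists for this comparison with mir-203-5p, and the most abundant of each list. Their relatives were added after their values were seen.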

Additional observations from a re-analysis of the deposited data

Results flagged for a closer look

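A library was singled out when it lay far from the rest of its time point, that is, when its distance to the next library, as a share of the whole range of the 8, exceeded the critical value of Dixon's test. This was so in 10 of the 64 groups examined (named entries and library measures), and about 1 in 20 would be so by chance. Entries that share reads are not independent.

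The T2 library t39 gave 5 of these. Its ratio was 0.757 for cpi-mir-145-3p at 0 CPM, 0.574 for cpi-mir-142-2-5p at 0 CPM and 0.569 for cpi-mir-9-4-3p at 5790 CPM. It was 0.546 for the number of entries detected, 195, and 0.891 for the mean distance to its own group, 3.97 on the log2 scale. This library has the lowest total, and the part of depth in these values was not tested.

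At T0 the library t40 was lowest for cpi-mir-145-5p, with 30.3 CPM from 1 count and a ratio of 0.6, and highest for the share of the 10 most abundant entries, 75.4%, with 0.555. Library t37 was lowest for cpi-mir-99a-3p, with 55100 CPM and a ratio of 0.671. Library t52 was lowest for cpi-mir-203-5p, at 0 CPM, with 0.528. At T2 library t36 was lowest for cpi-mir-204-1-3p, with 126 CPM and a ratio of 0.613.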

How the results depend on the processing

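The count of 1 called entry became 0 with entries of all species and without T0 libraries t46 and t49, and 2 by DESeq2 without t39, which added cpi-mir-145-3p. At an unadjusted p it was 8 of 198, and 18 of 528 by DESeq2, which had no filter before it. Without t39 it was also 8 of 198, but not the same 8. There cpi-mir-9-4-3p no longer passed, while cpi-mir-155a-3p did. Leaving out single libraries gave 0 to 1 entries and 0 to 1 families, and 5 of 94 families passed at the unadjusted p. For T1 against T0 that limit gave 12 of 198 entries and for T2 against T1 it gave 8 of 198. The difference in log10 total became 0.11 without t39. For 43 named entries under 24 settings, 982 values kept direction and side of the limits, 37 in 12 entries changed sign, 12 lost the call, all of cpi-mir-92b-5p, and 1 gained it. Without t46 and t49 the log2 fold change of cpi-mir-1a-1-5p was 1.04, of cpi-mir-1a-2-5p 1.51, of cpi-mir-425-3p 0.049, of cpi-mir-200b-5p -0.041 and of cpi-mir-210-3p -0.037. cpi-mir-9-3-3p had -0.24 with 1 surrogate variable, -0.44 by DESeq2 without t39 and -0.62 without t39 and t49. For cpi-mir-425-3p the value was 0.026 by DESeq2 and with its size factors, 0.0067 by DESeq2 without t39, and 0.15 without t39 and t49, where cpi-mir-451-3p had 0.0074. cpi-mir-29a-2-3p had -0.019 with no scaling. With each library left out in turn, the ranges that cross 0 were -0.45 to 3.89 for cpi-mir-9-3-3p, -0.15 to 0.059 for cpi-mir-425-3p, -1.18 to 0.34 for cpi-mir-122-3p and -0.074 to 0.52 for cpi-mir-206-5p. They were -0.48 to 0.0048 for cpi-mir-451-3p, -0.038 to 0.16 for cpi-mir-223-3p, -0.087 to 0.39 for cpi-mir-200b-5p and -0.021 to 0.34 for cpi-mir-210-3p. They were -0.073 to 0.15 for cpi-mir-10a-3p and -0.24 to 0.20 for cpi-mir-29a-2-3p. The cause of these shifts was not tested. The unfiltered log2 fold change of cpi-mir-196-2-3p was 1.92 to 3.13 with each library left out. No paired analysis was made because the labels do not tie libraries to turtles, although the same turtles were sampled at each time point. The library names run from t31 to t54 in the repeated order T0, T1, T2. No label says that each such run is a single turtle, and a fit paired by that order was not run. Library t39 limits what low entries can show at T2. Alternatives that leave out t46, t49 or t39 with another choice, and those for cpi-mir-196-2-3p, were chosen after seeing the data.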

Other observations

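Other families gave values on both sides of 0 at 36 h, with 0 entries called in any of them. The let-7 family, which keeps cells differentiated, had 8 of 15 entries above 0, with a median of 0.02, and its most abundant single entry cpi-let-7i-5p had 19101 ± 4727 CPM (SD, n = 8) before surgery and 21420.0 ± 8854 at T2. The mir-30 list had 7 of 8 entries above 0, with a median of 0.19, and cpi-mir-30d-3p had a log2 fold change (log2FC) of 0.11 (SE 0.19). In that list cpi-mir-30c-1-3p and cpi-mir-30c-2-3p have nearly the same counts and are not separate observations. All 7 entries of mir-181, a family that tunes T cell signaling in mammals, were below 0, with a median of -0.30, in each other scaling as well. With single libraries left out, cpi-mir-181a-3-5p turned to 0.001 without t52 and cpi-mir-181b-2-3p to 0.007 without t43. cpi-mir-181a-1-3p and cpi-mir-181a-3-3p have nearly the same counts and are not separate observations. Its entry cpi-mir-181a-2-3p had -0.56 (SE 0.28, adjusted p = 0.658 by edgeR), with 7 of 8 T2 libraries below the T0 median.

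Of the vessel wall list 1 of 4 entries was above 0, with a median of -0.08, and cpi-mir-126-5p, the main miRNA of the vessel lining, had 4764 ± 1395 CPM (SD, n = 8) before surgery and 6147 ± 4432 at T2. The mir-15 and mir-16 list had 1 of 4 above 0, which was cpi-mir-16c-3p at 0.62 (SE 0.39, adjusted p = 0.799 by edgeR). cpi-mir-27a-5p had 5964 ± 2256 CPM before surgery and 3624 ± 1904 at T2, a log2FC of -0.71 (unadjusted p = 0.0445, adjusted p = 0.637 by edgeR), while its list of mir-23, mir-24 and mir-27 had 4 of 10 entries above 0. The mir-148 and mir-152 list had 4 of 4 above 0, with a median of 0.12, but cpi-mir-148b-3p and cpi-mir-152-5p changed sign when single libraries were left out. The mir-26, mir-101 and mir-103 list had 4 of 8, with a median of 0.12 that turned to -0.23 without t39. For the Hox cluster list 3 of 3 were above 0, with a median of 0.04, and 2 of 3 were above 0 without t39. The single mir-29 entry, cpi-mir-29a-2-3p, had 0.03. cpi-mir-375-5p, from endocrine cells of the pancreas, had -0.39 (SE 0.46). The hypoxia miRNA cpi-mir-210-3p had 0.14 (SE 0.35).

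cpi-mir-7a-1-5p had 0 to 111 CPM at T0 and 11.8 to 404 at T2, a log2FC of 1.12 (SE 0.69, adjusted p = 0.799 by edgeR).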
